A study of Homo sapiens with 2 samples.

Results

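Transcripts of prostaglandin synthesis enzymes were examined in MCF-10A, a line of human breast epithelial cells that does not form tumours. The cells received a small interfering RNA (siRNA) against SCTR, the gene of the secretin receptor, which couples to G proteins, and were set against cells that received a negative control siRNA. The genes were chosen by name from the prostaglandin pathway, with earlier results of these arrays known, among them that PTGS1 was detected on the SCTR siRNA array only. Of 8 genes on the list, 5 were carried by name on the annotated probes (PTGS1, PTGES, PTGES2, PTGES3 and PTGR1), through 7 probes, out of 10161 named genes in all. No annotated probe bore the name PTGS2, PLA2G4A or HPGD, so these 3 genes were not analysed here. Names were available only for probes of a processed table deposited by the authors. They gave 1 symbol to 13060 probes, out of 47316 with a signal. A gene without a named probe, here and below, may therefore still be on the array.

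Prostaglandins are made from arachidonate, a fatty acid that phospholipases such as PLA2G4A free from membrane lipids. The cyclooxygenases PTGS1 and PTGS2 turn it into the unstable prostaglandin H, which terminal synthases convert into each signalling prostaglandin; PTGES, PTGES2 and PTGES3 make the E form, which acts through G protein-coupled receptors and raises or lowers cyclic AMP in the target cell. HPGD oxidises the product to a 15-keto form and reductases such as PTGR1 then inactivate it. In epithelia, PTGS1 is the cyclooxygenase usually present without stimulation, while PTGS2 and PTGES are known as enzymes induced by cytokines and growth factors.

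Both groups came from the same cell line and differed in the siRNA alone, as far as the labels go. Each group had 1 Illumina bead array, so no value below carries an error or a test and precision is limited by that number. A difference means the log2 level with SCTR siRNA minus the log2 level with control siRNA. Both arrays held 47316 probes with a signal, of which 33.5% on the SCTR siRNA array and 32.2% on the control array had a detection p-value, the scanner software's measure of signal above negative controls, under 0.01. No probe was named SCTR, so the knockdown was not checked and every direction rests on the labels. Of 8 mammary epithelial markers, KRT8 (difference 0.07), CDH1 (1.79) and EPCAM (0.82) were detected on both arrays and 5 had no named probe. Markers of other cells had a named probe in 3 of 16 cases: the monocyte genes CD14 (1.78) and CD68 (-0.52) were detected on both arrays, and the collagen gene COL1A1, at an intensity of 166 on the SCTR siRNA array and 119 on the control array, was detected on the SCTR siRNA array only, as PTGS1 was. Their part in the values below was not tested. In RNA from whole cultures, a change in the share of cells that carry a transcript and a change in its amount per cell cannot be told apart.

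The sequences around the start sites of PTGES and PTGS1 are shown because these were the members with the higher values on the SCTR siRNA array. They are RefSeq windows of 300 bases on assembly GRCh38.p14, printed 5′ to 3′ along the gene, with capitals marking the GC box (GGGCGG on either strand), the element typical of promoters that lack a TATA box. The PTGES window lies at chr9:129752993-129753292 on the minus strand. PTGS1 has 2 annotated starts, with windows at chr9:122370283-122370582 and chr9:122375052-122375351 on the plus strand.
PTGES: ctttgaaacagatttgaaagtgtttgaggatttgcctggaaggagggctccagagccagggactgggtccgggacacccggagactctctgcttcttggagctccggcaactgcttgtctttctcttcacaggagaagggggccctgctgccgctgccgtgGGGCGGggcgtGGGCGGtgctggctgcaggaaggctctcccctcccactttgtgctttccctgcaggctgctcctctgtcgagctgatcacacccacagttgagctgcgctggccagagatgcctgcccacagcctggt
PTGS1 upstream start: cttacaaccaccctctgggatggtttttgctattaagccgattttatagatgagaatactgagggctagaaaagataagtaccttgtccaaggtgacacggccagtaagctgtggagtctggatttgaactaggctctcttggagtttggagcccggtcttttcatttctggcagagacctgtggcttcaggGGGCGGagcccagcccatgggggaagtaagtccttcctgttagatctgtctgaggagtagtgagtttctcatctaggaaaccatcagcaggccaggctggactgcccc
PTGS1 downstream start: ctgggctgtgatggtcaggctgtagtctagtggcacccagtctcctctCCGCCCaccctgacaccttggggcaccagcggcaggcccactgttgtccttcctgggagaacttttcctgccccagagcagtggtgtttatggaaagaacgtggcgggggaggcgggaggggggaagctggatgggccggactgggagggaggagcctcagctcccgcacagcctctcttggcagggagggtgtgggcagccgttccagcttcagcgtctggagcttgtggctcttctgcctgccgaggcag

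PTGES held 2 GC boxes and each PTGS1 window 1, while 45.0% of 35116 RefSeq windows of the same length held at least 1. The second GC box of PTGES overlapped GCGTGGGCG, a site known for the zinc finger factors of the EGR family, which 0.795% of the windows held on either strand and which was also in 1 of the 3 windows of PTGES2. The short cyclic AMP response motif TGACG was in none of the 3 printed windows on either strand and occurred once in the window of PTGES3, against 24.6% of all windows. TATAAA was in the upstream PTGS1 window on the reverse strand, and 11.5% of all windows held it on either strand. The remaining windows, those of PTGES2, PTGES3 and PTGR1, held between 1 and 4 GC boxes each. A match describes letters in these windows and nothing about a factor.

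PTGS1, the first enzyme of the pathway among the measured genes, was above background on the SCTR siRNA array alone. Its only probe, annotated to transcript variant NM_080591, had an intensity of 459 with a detection p of 0 on the SCTR siRNA array, against 146 with a detection p of 0.018 on the control array. The control value lay between the median of probes at background, 107 on either array, and the lowest intensity that passed as detected there, 155. PTGS1 was therefore a transcript with a clear signal on one array and a marginal one on the other.

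After background correction and quantile normalization the log2 level of PTGS1 was 8.49 on the SCTR siRNA array and 5.81 on the control array, below the lowest level of any detected probe on the control array, 6.04. Set against that lowest level, PTGS1 was at least 5.46-fold higher on the SCTR siRNA array. The size of the bound depended on how background was treated: it was at least 2.85-fold without background correction and at least 2.84-fold in the authors' processed values, and the plain ratio of intensities was 3.16. Of 440 genes detected on the SCTR siRNA array only, 79 (18.0%) had a bound of at least 2-fold and 6 had a larger bound than PTGS1. PTGS1 was listed for this detection pattern, so its values are a description.

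**Figure D1:**
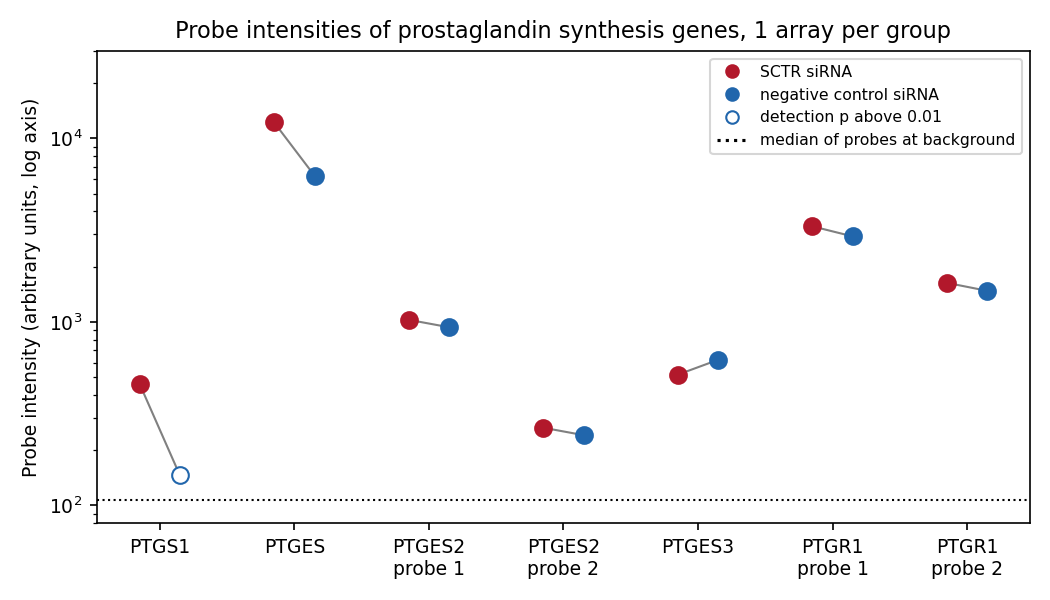
Intensity of each probe of the 5 genes (log axis, arbitrary units) on the SCTR siRNA array (red) and the negative control siRNA array (blue), 1 array each; an open circle has a detection p above 0.01 and the dotted line is the median of probes at background, 107. PTGS1 stands at 459 and 146 and PTGES at 12200 and 6258, while the paired points of the other probes lie close together.

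PTGES, the inducible microsomal prostaglandin E synthase, was about 2-fold higher on the SCTR siRNA array. Its single probe had an intensity of 12200 on the SCTR siRNA array and 6258 on the control array, both far above background and below the brightest probes, at 56200 and 55600. The normalized log2 levels were 13.58 with SCTR siRNA and 12.58 with control siRNA, a difference of 1.01 (2.01-fold). The authors' processed values, 13.61 and 12.59 on the same arrays, gave 1.01 as well (2.02-fold). The value sat at the 2-fold line, and without background correction (1.00, just under it) or under median scaling (0.90, 1.86-fold) PTGES no longer counted as 2-fold higher, as 7.10% and 9.41% of all genes did in those settings.

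A difference of this size was not rare on these arrays. PTGES stood at percentile 90.4 of the 8661 genes detected on both, with 831 genes further up. Among the 758 genes whose mean log2 level was within 1 of that of PTGES, 101 (13.3%) had a larger positive difference.

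The other E synthases stood closer to their control levels. PTGES2, a membrane-associated synthase, had intensities of 1026 on the SCTR siRNA array and 934 on the control array by its brighter probe, and of 265 and 241 by the other. Their differences were 0.11 and 0.07, so both probes placed PTGES2 within 1.1-fold of the control. PTGES3, a cytosolic protein known both as a prostaglandin E synthase and as the HSP90 co-chaperone p23, was the one member with a lower level: 516 on the SCTR siRNA array and 621 on the control array. Its difference was -0.38, so that the control level was 1.30-fold the higher one. PTGES3 has 5 pseudogenes named for it in the RefSeq gene table, and whether its probe also reads them was not tested.

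The gap between the differences of the isozymes moved little with the processing. The difference of PTGES exceeded that of PTGES2 by 0.90 log2 units, and by 0.82 to 0.92 over the reported and 7 other settings. It exceeded the difference of PTGES3 by 1.39, with a range of 1.29 to 1.39. The other detection filters could not change either gap, since the brightest probe of each gene passed them all. Averaging over probes could not change the gap to PTGES3, since PTGES and PTGES3 have 1 probe each. These gaps describe unequal differences of the probes that stood for the 3 synthases on this pair of arrays. With 1 probe each for PTGES and PTGES3, a difference between probes cannot be told apart from one between transcripts. There was also no spread between cultures to set the gaps against.

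PTGR1, the reductase that inactivates 15-keto prostaglandins and also oxidises leukotriene B, was close to its control level. Its brighter probe had intensities of 3314 on the SCTR siRNA array and 2921 on the control array, and its other probe 1631 and 1475. The differences, 0.13 and 0.12, were 0.01 apart. For comparison, the 2 brightest detected probes of a gene disagreed by a median of 0.20 log2 units over 1902 genes, and by more than 0.70 in the tenth of genes with the widest gap, so the difference of PTGR1 was smaller than the usual disagreement between probes of one gene.

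Among the 4 members with detection on both arrays, 1 was at least 2-fold higher on the SCTR siRNA array, where 9.74% of all 8661 genes were, and 0 were at least 2-fold lower, where 8.44% were. The other 3 lay within 1.5-fold of the control, as did 57.9% of all genes. The median difference of the 4 was 0.12, beside -0.09 over all genes (SD over genes 0.80). With 4 genes chosen with results known, these shares carry no test.

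**Figure D2:**
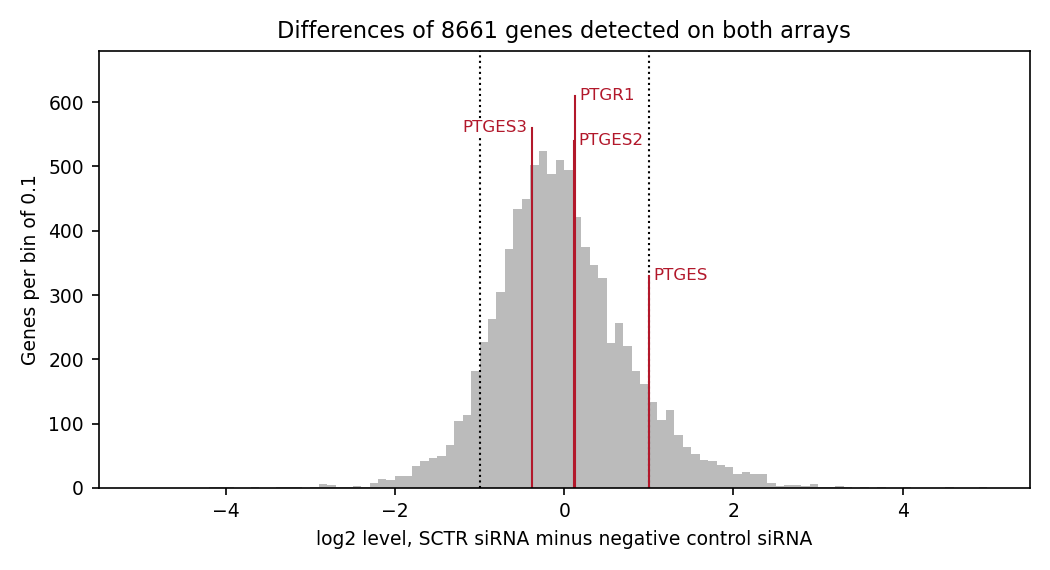
Histogram of log2 differences, SCTR siRNA minus negative control siRNA, of 8661 genes detected on both arrays (bins of 0.1), with red lines at the 4 members and dotted lines at 2-fold. PTGES (1.01) lies in the upper shoulder, and PTGR1 (0.13), PTGES2 (0.11) and PTGES3 (-0.38) lie in the central part.

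**Figure D3:**
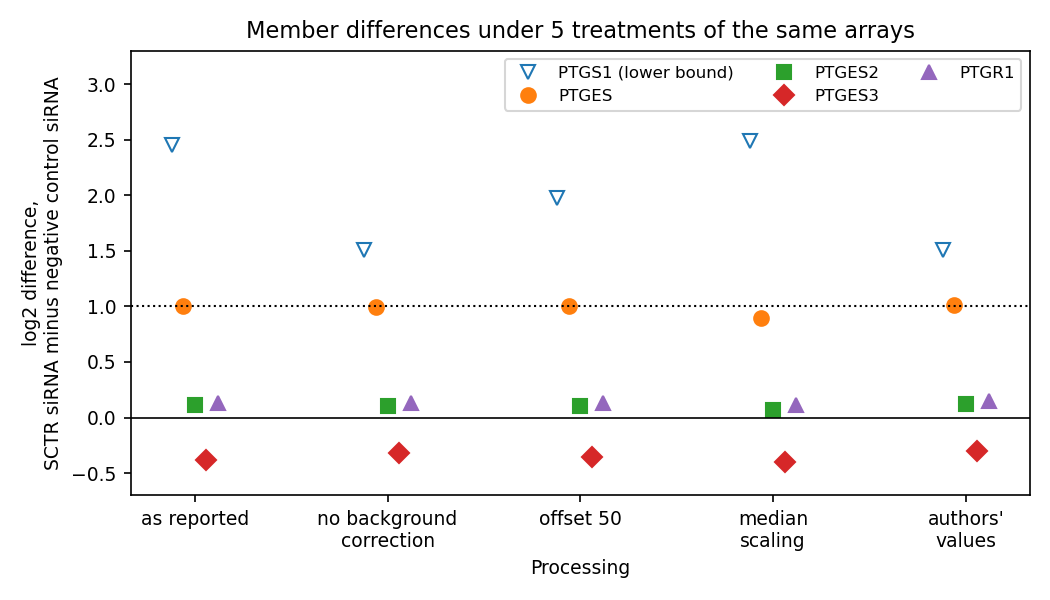
Log2 difference of each member (y axis) under the reported processing and 4 other treatments of the same 2 arrays (x axis); open triangles are lower bounds for PTGS1 and the dotted line is 2-fold. PTGES stays near the 2-fold line, PTGES2, PTGES3 and PTGR1 keep their side of 0, and the PTGS1 bound moves between 1.51 and 2.49.

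Around these enzymes, 80 further genes of the release, supply, conversion, export and breakdown of arachidonate products, and of their receptors, were listed by role. Of these, 36 had a named probe and 30 passed detection on both arrays. At least 1.5-fold higher levels on the SCTR siRNA array were seen for 15 of the 30, against 19.5% of all genes. Another 6 were at least 1.5-fold lower, against 22.6% of all genes. The median difference of the 30 was 0.62, beside -0.09 over all genes. In the authors' processed values these medians were 0.44 and -0.05. With genes detected on 1 array added at their bound, they were 0.44 and -0.09. The lists were drawn up with earlier results of these arrays known and hold genes of several other pathways, so no test was made.

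Upstream, enzymes that release arachidonate were mixed, with 3 of 8 at least 1.5-fold higher (19.5% of all genes), 1 at least 1.5-fold lower (22.6% of all genes) and a median of 0.28. The secreted phospholipase PLA2G2D had an intensity of 515 on the SCTR siRNA array and 193 on the control array, a difference of 1.95. PLA2G4C, a phospholipase of the same family as PLA2G4A, stood at 337 and 173 on the same arrays, a difference of 1.48. Both were dim with control siRNA, and the authors' processed values gave differences of 1.35 for PLA2G2D and 0.89 for PLA2G4C. DAGLB, a diacylglycerol lipase, was at 0.76, and the lysosomal phospholipase PLA2G15 was at -0.74. PLA2G12A passed detection on the control array only, but its intensities, 152 with SCTR siRNA and 159 with control siRNA, were nearly equal and close to background.

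Of 6 genes that make arachidonate or attach it to lipids, 4 were at least 1.5-fold higher (19.5% of all genes) and 1 at least 1.5-fold lower (22.6% of all genes), with a median of 1.11. The lysophospholipid acyltransferases MBOAT7 (1.33) and LPCAT2 (1.27) and the desaturase FADS1 (1.31) were each more than 2-fold higher on the SCTR siRNA array. MBOAT7, which places arachidonate in phosphatidylinositol, had intensities of 1627 with SCTR siRNA and 686 with control siRNA. ACSL1, an acyl-CoA synthetase, was at -1.26, with 3061 on the SCTR siRNA array and 7110 on the control array.

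Beside the E synthases, 3 enzymes that make or interconvert other prostaglandins were detected on both arrays. AKR1C3, an aldo-keto reductase that makes prostaglandin F, differed by 0.99, at 26319 on the SCTR siRNA array and 14698 on the control array. It belongs to a family of 5 protein-coding AKR1C genes of closely similar sequence, and whether its probe reads the others was not tested. Of these, AKR1C2 (2.30) and AKR1C4 (1.96) had larger differences than AKR1C3. The carbonyl reductases CBR1 (0.25) and CBR3 (-1.49) lay on opposite sides of 0, with CBR3 at 229 with SCTR siRNA and 445 with control siRNA. PRXL2B, which also makes prostaglandin F, was detected on the SCTR siRNA array only, by at least 1.08-fold. Its intensities, 167 with SCTR siRNA and 144 with control siRNA, were close to background. Of 9 prostanoid receptors, only PTGER4, a receptor for prostaglandin E that raises cyclic AMP, carried a named probe, and it differed by 0.18, at 1088 on the SCTR siRNA array and 944 on the control array.

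Of 4 export and late inactivation genes, 3 were at least 2-fold higher on the SCTR siRNA array, where 9.74% of all genes were, and 1 was at least 1.5-fold lower, where 22.6% were. ABCC4, a transporter that carries prostaglandin E out of cells, was at 1784 on the SCTR siRNA array and 590 on the control array, a difference of 1.71 (3.26-fold). SLCO3A1, a carrier known to move prostaglandins, differed by 1.37 by its brightest probe and by 1.07, 1.56 and 1.83 by 3 others, 2 of which were not detected on the control array. PTGR2, a reductase of 15-keto prostaglandins like PTGR1, differed by 1.75 (1.31 in the authors' processed values). It stood at 611 with SCTR siRNA and 235 with control siRNA. Its second probe, at 140 and 147 on the same arrays, was not detected on either. The third reductase, PTGR3, was at -0.78.

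Leukotriene and P450 branches were divided. LTB4R, the receptor for leukotriene B, had intensities of 943 on the SCTR siRNA array and 352 on the control array, a difference of 1.66. LTA4H, the enzyme that makes this leukotriene, was at -0.07, the epidermal lipoxygenase ALOXE3 at 0.80 (0.42 in the authors' processed values) and the lipoxygenase ALOX15B at -0.53. The microsomal epoxide hydrolase EPHX1 (2.29) and the fatty acid hydroxylase CYP4F11 (2.25) had the largest positive differences among the 30 genes, and the soluble epoxide hydrolase EPHX2 (-0.89) and the epoxygenase CYP2J2 (-1.06) were lower on the SCTR siRNA array. EPHX1 stood at 1110 with SCTR siRNA and 290 with control siRNA.

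**Figure D4:**
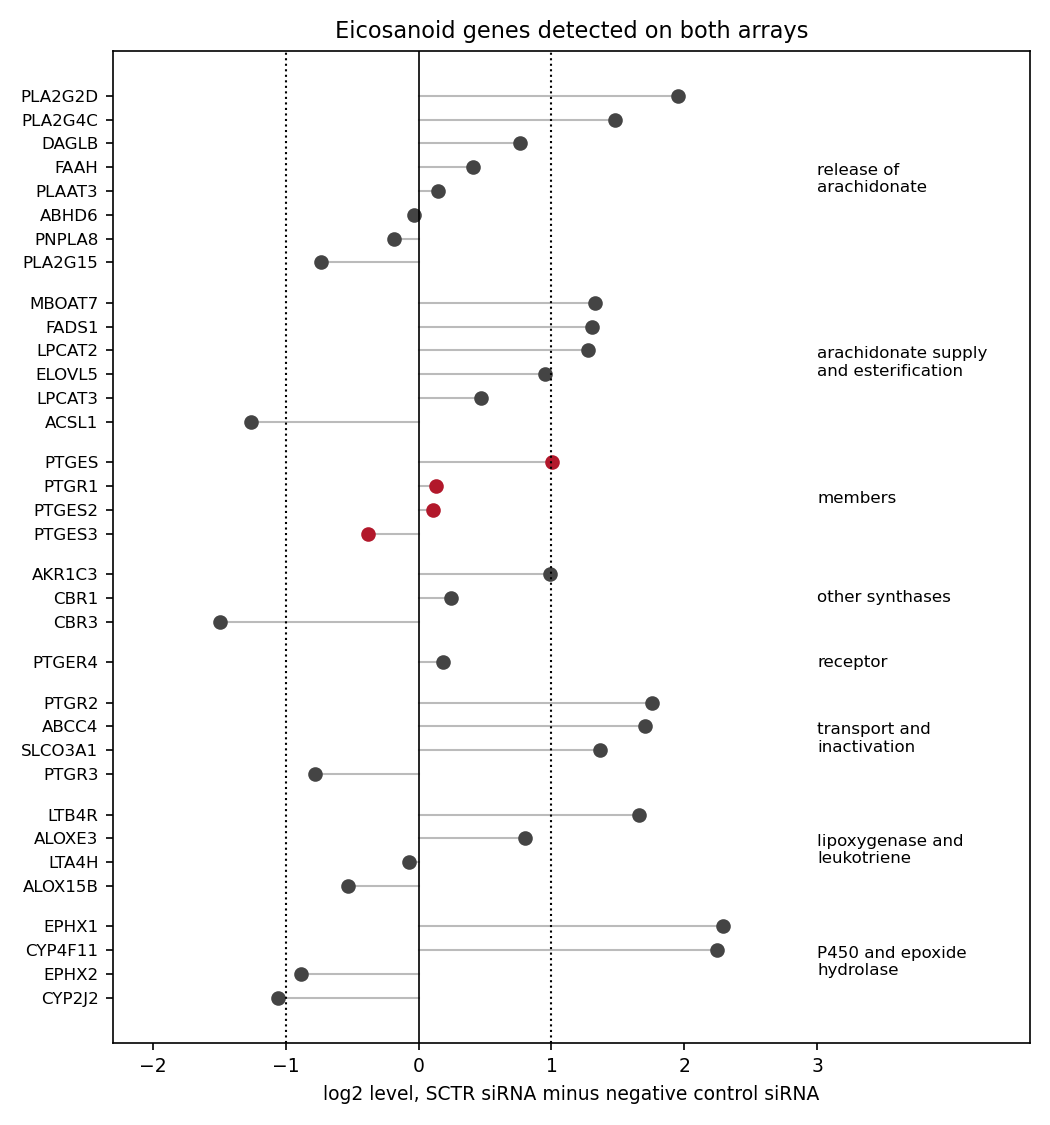
Log2 difference, SCTR siRNA minus negative control siRNA (x axis), of each eicosanoid gene detected on both arrays, grouped by role with the 4 members in red; dotted lines mark 2-fold. The transport and inactivation genes ABCC4 (1.71), SLCO3A1 (1.37) and PTGR2 (1.75) lie right of the 4 members, and PTGR3 (-0.78) of the same group lies left of them. CBR3 (-1.49) and ACSL1 (-1.26) lie furthest left. PTGS1, detected on 1 array, is not shown.

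Regulators known to act on PTGS2 transcription or on the stability of its RNA were listed although PTGS2 itself was not analysed here. Of 16 that passed detection on both arrays, at least 1.5-fold higher levels with SCTR siRNA were seen for 3 and lower levels for 4, with a median of -0.02. These counts lie near the shares over all genes, 19.5% higher and 22.6% lower. The AP-1 partners FOS (-1.97) and JUN (1.00) stood on opposite sides of 0. The RNA-binding protein ZFP36L1 was at 1.24 and CREB1, the cyclic AMP response factor, at 1.40 by its brightest probe, while 1 of its 2 other probes detected on both arrays gave 1.54 and the other -0.63, and 2 more probes were detected on the control array only.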

How the data were processed

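Per the labels' protocols, biotin-labelled cRNA was made from total RNA with an Illumina amplification kit. The authors' deposited table gives each probe's intensity with its detection p-value on either array, and the submitters' processing notes name GenomeStudio 2011.1. Of 47323 rows, 7 without a signal were left out. The second table deposited by the authors has log2 values of 16871 probes, and its 2 columns hold the same sorted values within 0.000416, as quantile normalization gives; how they were made is not given in the sources used here.

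Intensities were background-corrected with limma 3.58.1 (R 4.3.3) by the normal-exponential model, where the detection p-values stood in for negative controls and the offset was 16. Quantile normalization and log2 transformation followed. These steps were run on simulated arrays, with differences placed in probes detected on both arrays and well above background. The bound for genes detected on 1 array was not tested in this way. Symbols came from the platform annotation, given for the probes of the processed table only. It had 1 symbol for 13060 probes, several for 3 and none for the rest of that table. Probes outside that table carried no name. Gene IDs of 13054 probes were found in a RefSeq table (GRCh38.p14). Where several probes of a gene passed a detection p of 0.01 on both arrays, the brightest stood for it. For a gene detected on 1 array, the fold is a bound against the lowest detected level of the other array, or against the dim probe itself if that was higher.

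The members and gene lists were chosen with earlier results of these data known. Named were all members, the genes furthest from 0 in each list (up to 4) and those detected on 1 array, and the prostanoid receptors detected. The 3 genes nearest in level to the member with the largest difference, also part of the rule, are not reported, since levels of different probes cannot be compared. The alternatives were other background corrections, median scaling, the authors' values, other detection filters, probe means, a 1.5-fold rule and members at their bound.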

Additional observations from a re-analysis of the deposited data

How the results depend on the processing

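Differences of PTGES, PTGES2, PTGES3 and PTGR1 kept their sign in the 7 alternatives and moved by less than the median disagreement between probes of a gene, 0.20. The bound of PTGS1, 2.45 on the log2 scale, became 1.51 with uncorrected background, 1.98 with an offset of 50 and 1.51 in the processed values of the authors; with a detection p under 0.05 or no filter PTGS1 counted as measured on both arrays, at 2.67. The number of members at least 2-fold higher, 1 as reported, was 0 without background correction and 0 under median scaling, and 2 with a detection p under 0.05, with no detection filter, and with PTGS1 at its bound. Over all genes, 1693 were higher and 1955 lower at a 1.5-fold rule. The number of all genes at least 2-fold lower, 731, became 417 with uncorrected background and 394 in the processed values of the authors. The number at least 2-fold higher, 844, became 615 and 637 in these settings, although it was labelled as not moved. The median of the transport and inactivation genes, 1.54, became 1.20 and 1.21 in the same settings, and that of the lipoxygenase and leukotriene genes, 0.36, was -0.0023 with no detection filter, which adds a dim gene. In all, 115 of the 132 recomputed values were labelled as not moved. Some could not move: PTGES and PTGES3 have 1 probe each, detected on both arrays, so detection filters and probe means returned the same value. The tally is therefore no measure of stability. For dim probes such as PTGS1 on the control array, closeness to background limits the size of any fold. No paired analysis was possible because each group has 1 array.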
